A study of Mus musculus with 16 samples.

Results

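Mucosal defence genes encode the proteins with which the lining of the gut holds microbes at a distance. The 10 genes described here, Pigr, Slpi, Lcn2, Lypd8, Reg3g, Reg3b, Ang4, Itln1, Saa1 and Saa3, were taken by symbol from 31053 genes counted in single cells of mouse colon tumour organoids. Each symbol stood on 1 row of the gene table. In the AOM/DSS model behind these tumours, azoxymethane starts the cancer and dextran sodium sulfate inflames the colon. Organoids are epithelial cultures grown in 3 dimensions. The plus TAM group has the genotype KMT9ko/ko and the minus TAM group KMT9wt/wt, both at passage 14. KMT9 is a methyltransferase whose catalytic subunit is encoded by N6amt1. What TAM stands for is not spelled out in the labels, and the effects of TAM and of the knockout cannot be told apart, since plus TAM cells carry both. Each group's 8 records were read as pieces of a single library, because the design text names 2 samples and there is 1 matrix for each group. On that reading n = 1 for each group: no difference below has a replicate check or a test, and every interval is an exact 95% interval that covers counting error only.

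Defence at the gut surface has several layers. Pigr carries antibody through the epithelial cell into the lumen. Secreted lectins and ribonucleases such as Reg3g, Reg3b, Itln1 and Ang4 act on microbes directly. Of these, Itln1 and Ang4 come mainly from Paneth, goblet and deep crypt secretory cells. Lcn2 withholds iron, Slpi blocks proteases, Saa1 and Saa3 belong to the acute phase response, and Lypd8 coats the surface of mature colonocytes. In the intestine many of these genes are induced by cytokines such as IL-22 and IL-17 and by microbial products, through STAT3, NF-kB and C/EBP factors, while CDX factors hold intestinal identity.

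After filtering, 1481 plus TAM cells with 37358097 UMIs (unique molecular identifiers, which count captured RNA molecules) and 2629 minus TAM cells with 68605296 UMIs were kept. Median UMIs per cell were 24184 in plus TAM and 24603 in minus TAM cells. The summed level of N6amt1 was 6.13 CPM (the count of a gene scaled to the UMI total of its library) in plus TAM against 34.1 CPM in minus TAM, and the sources used here do not give which exons the knockout removes. All 7 epithelial markers reached 10 CPM, summing to 14351 CPM in plus TAM and 12790 CPM in minus TAM. The 10 immune markers summed to 17.1 and 13.4 CPM in the same order, with Tyrobp, Itgam and Cd3e at 0, and the 6 fibroblast markers to 0.268 and 0.117 CPM, with 4 of them at 0. Other marker lists differed between the libraries, and their part in the results below was not tested. Squamous markers summed to 1066 CPM in plus TAM against 438 CPM in minus TAM, colonocyte markers to 335 against 81.7 CPM, and Paneth or deep crypt markers, which include Ang4 and Itln1, to 481 against 287 CPM. In that last list Reg4 (30.4 against 43.6 CPM), Ang4 (3.56 against 12.7 CPM) and Itln1 (3.48 against 15.5 CPM) were lower in plus TAM. The higher sum in plus TAM thus came from other genes of the list. Goblet markers summed to 14.5 against 26.3 CPM, tuft markers to 39.9 against 98.9 CPM, stem markers to 306 against 421 CPM and cycling markers to 441 against 707 CPM. The colonocyte sums lay mostly in few cells. In 49 plus TAM cells with 10 or more Lypd8 UMIs they were 7140 CPM, against 26.9 CPM in the other plus TAM cells. In 202 such minus TAM cells they were 648 CPM, against 20.2 CPM in the others. Of the 49 cells, 30 carried a barcode found in both matrices, and no marker sum was computed without such barcodes. A total of 498 barcodes were present in both matrices. They make up 324 of the kept plus TAM cells (21.9%) and 167 of the kept minus TAM cells (6.35%), and 318 and 158 of these cells hold the larger copy. Where the plus TAM copy was larger, the smaller copy had a median of 2.83% of its UMIs, and where the minus TAM copy was larger, 1.47%. Kept cells with such a barcode had more UMIs, a median of 28511 against 23242 for the others in plus TAM and 41166 against 23901.5 in minus TAM. Log2 ratios without these cells are given beside the members, and for the other genes where leaving them out changed a call or moved a ratio by over 1.5-fold.

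The 8 genes with UMIs in both libraries had ratios in both directions. Of the 6 that reached 10 CPM in at least 1 library, Slpi and Lcn2 were 1.5-fold or more higher in plus TAM, and Pigr, Ang4 and Itln1 were 1.5-fold or more lower, while Lypd8 passed neither threshold. Among all 7912 genes that reached 10 CPM, 8.06% were higher and 10.7% lower by that size, with a median log2 ratio of -0.06. Because only 6 members were measured at this level, the counts of 2 higher and 3 lower describe these genes and are not read as a property of the group. Saa1, Saa3, Reg3g and Reg3b stayed under 10 CPM.

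The stretches around the start sites of these 5 genes are shown because the ratios of the genes differ in sign while letters for the same transcription factors were searched in each. They are from RefSeq (GRCm38.p6), which held 11 windows for the 10 members, and run from 250 bases before the start site to 50 after, 5′ to 3′ on the gene's strand. Capitals mark matches, on either strand, to letters for NF-kB (GGG and CC with any 5 bases between them), STAT (TTCNNNGAA), C/EBP (TTGCNNAA) or CDX (TTTATG).
Slpi, chr2:164356458-164356757, minus strand: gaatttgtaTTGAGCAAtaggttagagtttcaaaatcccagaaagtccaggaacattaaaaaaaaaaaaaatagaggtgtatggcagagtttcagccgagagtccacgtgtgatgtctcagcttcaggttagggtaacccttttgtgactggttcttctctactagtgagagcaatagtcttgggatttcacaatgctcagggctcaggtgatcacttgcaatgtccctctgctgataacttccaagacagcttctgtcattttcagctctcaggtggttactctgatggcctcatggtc
Lcn2, chr2:32387690-32387989, minus strand: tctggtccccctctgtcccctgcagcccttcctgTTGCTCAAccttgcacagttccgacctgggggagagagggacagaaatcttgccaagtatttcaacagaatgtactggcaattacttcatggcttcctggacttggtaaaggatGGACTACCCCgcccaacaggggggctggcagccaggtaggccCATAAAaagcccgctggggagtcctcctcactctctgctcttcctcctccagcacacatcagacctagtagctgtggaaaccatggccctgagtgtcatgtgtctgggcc
Pigr, chr1:130826434-130826733, plus strand: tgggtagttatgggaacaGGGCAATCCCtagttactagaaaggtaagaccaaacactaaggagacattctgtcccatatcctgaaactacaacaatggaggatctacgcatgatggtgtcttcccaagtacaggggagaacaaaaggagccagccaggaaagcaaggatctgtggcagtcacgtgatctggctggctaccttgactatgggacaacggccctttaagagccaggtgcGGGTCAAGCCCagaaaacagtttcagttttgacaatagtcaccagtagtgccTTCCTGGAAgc
Ang4, chr14:51773541-51773840, minus strand: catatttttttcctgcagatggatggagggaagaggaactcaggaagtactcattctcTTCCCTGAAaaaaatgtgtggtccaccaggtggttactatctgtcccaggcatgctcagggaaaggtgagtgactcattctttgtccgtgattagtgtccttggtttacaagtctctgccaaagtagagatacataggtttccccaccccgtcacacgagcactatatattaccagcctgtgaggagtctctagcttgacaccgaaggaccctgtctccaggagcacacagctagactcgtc
Itln1, chr1:171535245-171535544, minus strand: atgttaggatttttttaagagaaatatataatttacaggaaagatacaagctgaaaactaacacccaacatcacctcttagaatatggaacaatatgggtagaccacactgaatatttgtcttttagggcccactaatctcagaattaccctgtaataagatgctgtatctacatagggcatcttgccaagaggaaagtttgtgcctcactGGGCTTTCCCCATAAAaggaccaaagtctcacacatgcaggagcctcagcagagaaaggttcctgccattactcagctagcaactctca
NF-kB letters were found in 6 of the 10 members and in 50.8% of all 32851 promoter windows. STAT letters were found in 3 members and 8.30% of windows, C/EBP letters in 4 and 10.8%, and CDX letters in 4 and 11.9%. Among the genes higher in plus TAM, Slpi held only a C/EBP match and Lcn2 held NF-kB, C/EBP and CDX matches. Among the lower genes, Pigr held NF-kB and STAT matches, Ang4 a STAT match, and Itln1 NF-kB and CDX matches that share a base. The CDX letters of Itln1, at -29 to -24 from the start site, and those of Lcn2, at -60 to -55, also read as an A/T-rich run of the kind found in a TATA box. C/EBP letters stood in both higher genes and in none of the 3 lower ones, which is 2 windows. They also stood in Saa1 and Saa3, which stayed under 10 CPM and had opposite log2 ratios of 3.35 and -1.37. A match of letters describes the window only.

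**Figure D1:**
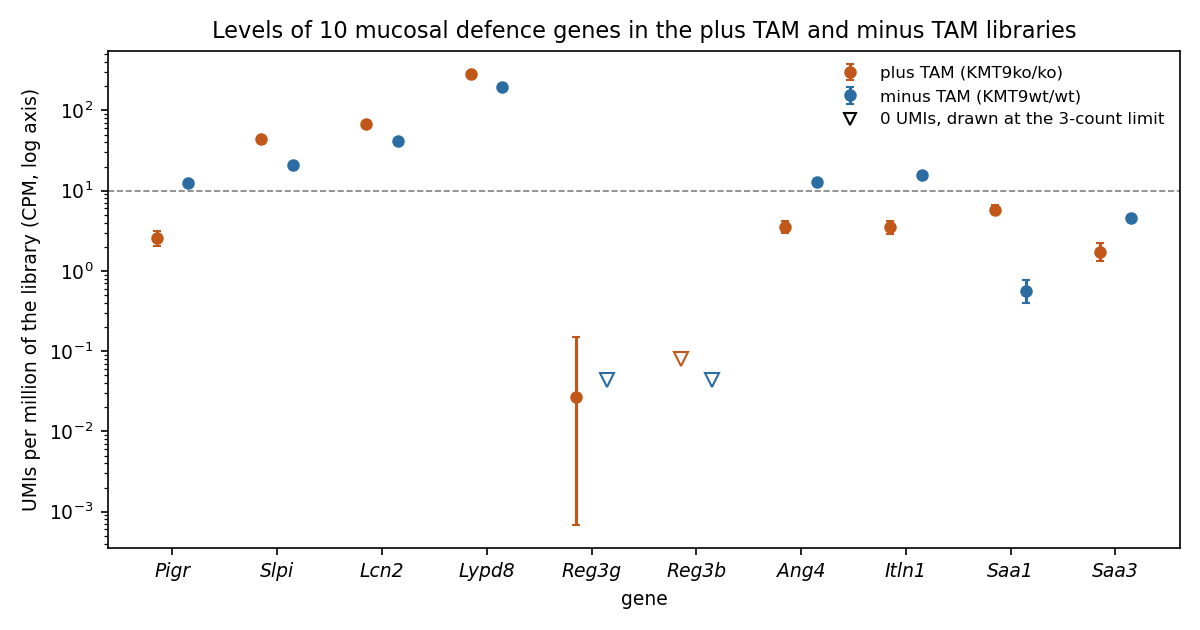
Summed level of each gene in the plus TAM library (left point, orange) and the minus TAM library (right point, blue), in CPM on a log axis, with exact 95% Poisson intervals. Triangles mark genes with 0 UMIs at the limit that 3 counts set, and the dashed line marks 10 CPM. Lypd8 was the highest member in both libraries, and Slpi, Lcn2, Lypd8 and Saa1 stood higher in plus TAM.

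In plus TAM the order of levels was Lypd8 (285 CPM), Lcn2 (68.4), Slpi (44.4), Saa1 (5.81), Ang4 (3.56), Itln1 (3.48), Pigr (2.54) and Saa3 (1.74). The intervals of Ang4, Itln1 and Pigr overlapped between neighbours. In minus TAM it was Lypd8 (194 CPM), Lcn2 (41.6), Slpi (20.8), Itln1 (15.5), Ang4 (12.7), Pigr (12.6), Saa3 (4.50) and Saa1 (0.568), where Ang4 and Pigr did not differ beyond counting error. The 3′ protocol counts 1 tag per molecule, so these levels need no scaling by transcript length. Pigr was the 10376th most abundant gene in plus TAM and the 6850th in minus TAM, and Lypd8 was the 533rd in plus TAM and the 820th in minus TAM.

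Pigr, the polymeric immunoglobulin receptor, was the member of 10 or more CPM with the lowest ratio. It had 95 UMIs (2.54 CPM) in plus TAM against 867 UMIs (12.6 CPM) in minus TAM, a log2 ratio of -2.31 (interval -2.63 to -2.01), or 4.97-fold lower in plus TAM. Without cells of barcodes found in both matrices the log2 ratio was -2.35 (-2.73 to -1.99). Only 0.126% of measured genes had a lower ratio. The gene lies at chr1:130826684-130852249 on the plus strand, and 5.47% of the 90-base stretches near its 3′ end also occur in other genes, so a small part of its reads may be counted ambiguously. Its counts were thin and spread over many cells: 50% of them lay in the 34 highest cells of plus TAM and the 142 highest of minus TAM, and no cell held more than 4 in plus TAM or 8 in minus TAM. With every cell thinned to 5000 UMIs, 20 of 1387 plus TAM cells (1.44%, interval 0.883% to 2.22%) and 167 of 2487 minus TAM cells (6.71%, 5.76% to 7.77%) had a Pigr UMI. Without thinning these shares were 5.47% and 20.05%.

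Cells were grouped into 12 clusters, computed without the members and the other defence genes listed further on, to see where each member was found. In plus TAM, Pigr had a low level in the 7 clusters with 50 or more cells, between 0.960 and 3.46 CPM, where free RNA and expression cannot be told apart. The levels were not all alike, since the intervals of cluster 0 (1.99 to 4.33 CPM) and cluster 6 (0.386 to 1.98 CPM) do not overlap. In minus TAM, Pigr ranged over 8 clusters of that size, between 1.88 CPM in cluster 7 and 48.0 CPM in cluster 8, where 126 of 211 cells (59.7%) had a UMI. Cluster 8, led by Fabp2 and Ms4a10 and with Lypd8 among its leading genes, held 34.3% of the Pigr UMIs of minus TAM, and it had 20 plus TAM cells. Of the 5 clusters with 50 or more cells in both libraries, Pigr was lower in plus TAM beyond counting error in cluster 2 (log2 ratio -1.17, interval -2.09 to -0.36), led by cell cycle genes, and cluster 4 (-2.19, -3.36 to -1.21), led by heat shock genes. In clusters 0 and 7 the ratios of -0.10 and -0.24 had intervals that span 0, as had that of -2.42 in cluster 9, which rests on 1 and 14 UMIs. With minus TAM cells weighted to the cluster shares of plus TAM, the ratio was -1.15.

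**Figure D2:**
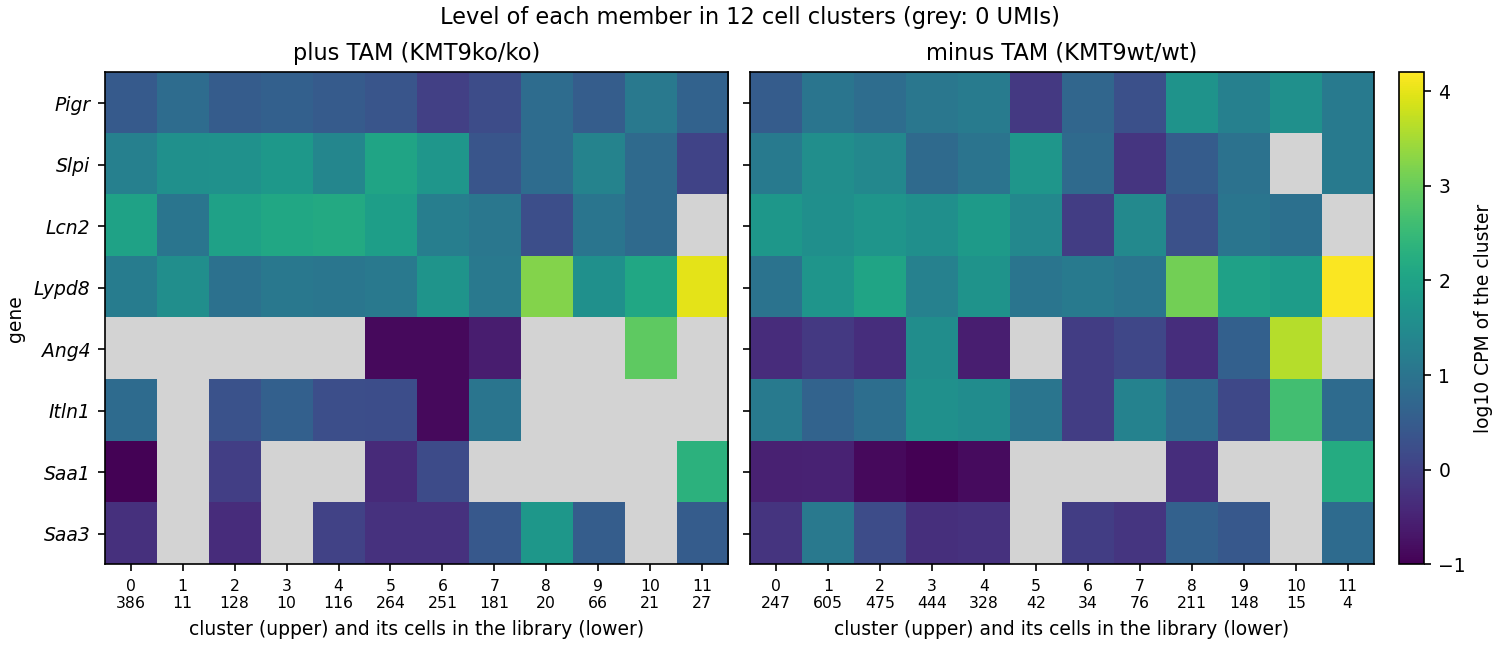
Level of 8 members in each of 12 clusters, as log10 CPM (colour), in plus TAM (left) and minus TAM (right). Numbers under the axis give the cluster and its cells in that library, and grey marks 0 UMIs. Lypd8 was highest in clusters 8 and 11 of both libraries, and Ang4 in cluster 10 of both.

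Slpi, a secreted inhibitor of serine proteases such as neutrophil elastase, was the measured member with the highest ratio. It had 1658 UMIs (44.4 CPM) in plus TAM against 1429 UMIs (20.8 CPM) in minus TAM, a log2 ratio of 1.09 (0.99 to 1.19), or 2.13-fold higher. Without cells of barcodes found in both matrices it was 52.7 against 19.8 CPM, a log2 ratio of 1.41 (1.30 to 1.52). Of all measured genes, 97.7% had a lower ratio. A Slpi UMI was present in 10.1% of thinned plus TAM cells (8.56% to 11.8%) and 5.83% of thinned minus TAM cells (4.94% to 6.82%), and in 22.5% and 16.2% without thinning. The lowest cluster of 50 or more cells, cluster 7 in both libraries, had Slpi in 3.87% of unthinned plus TAM cells and 1.32% of minus TAM cells, at median depths of 19329 and 19417.5 UMIs. The gene lies at chr2:164354070-164389095 on the minus strand and contains the microRNA gene Mir7678 on the same strand.

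The clusters that held most Slpi differed between the libraries, but these clusters were themselves nearly split by library. In plus TAM, cluster 5, led by Asprv1, Spp1, Slpi itself and Krt90, held 47.5% of Slpi UMIs at 109 CPM, and cluster 6, led by Inhba and Sprr1a, held 23.6% at 53.7 CPM. In minus TAM, cluster 1, led by Timp3, Fgfbp1 and Krt4, held 49.3% at 37.3 CPM. Cluster 5 had 264 plus TAM and 42 minus TAM cells, and cluster 1 had 11 and 605. Of the 5 clusters that could be compared, Slpi was higher in plus TAM beyond counting error in cluster 0 (log2 ratio 0.45, 0.06 to 0.84), cluster 2 (0.71, 0.45 to 0.96) and cluster 4 (1.32, 0.82 to 1.81). In clusters 7 and 9 the ratios of 1.93 and 1.17 had intervals that span 0. Without cluster 5 in either library the ratio was 0.52 (0.39 to 0.64), which is under the 1.5-fold threshold. The 32 highest plus TAM cells and the 44 highest minus TAM cells held 50% of Slpi UMIs, and the highest cells held 65 and 45. Cells with 10 or more Slpi UMIs differed from the other cells in the same direction in both libraries for squamous and for colonocyte markers. This was not particular to these lists, since epithelial markers were also higher in both libraries, and stem and goblet markers lower. Squamous markers summed to 1602 CPM in 41 such plus TAM cells against 1045 CPM in the other plus TAM cells, and to 1153 CPM in 29 such minus TAM cells against 426 CPM in the others. Colonocyte markers summed to 20.7 against 347 CPM in plus TAM and 10.8 against 83.0 CPM in minus TAM. The larger sums lay mostly in cells with 10 or more Lypd8 UMIs. Over all cells under 10 Lypd8 UMIs they were 26.9 CPM in plus TAM and 20.2 CPM in minus TAM. The colonocyte contrast is therefore not read as a trait of the Slpi cells.

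Lcn2 encodes lipocalin 2, which binds the siderophores that bacteria use to take up iron. It had 2557 UMIs (68.4 CPM) in plus TAM against 2854 UMIs (41.6 CPM) in minus TAM, a log2 ratio of 0.72 (0.64 to 0.80), or 1.65-fold higher. Without cells of barcodes found in both matrices it was 80.3 against 42.6 CPM, a log2 ratio of 0.91 (0.83 to 0.996). It lies at chr2:32384633-32388252 on the minus strand. Lcn2 was the most widely spread of the higher members, with a UMI in 16.4% of thinned plus TAM cells (14.5% to 18.5%) and 12.3% of thinned minus TAM cells (10.9995% to 13.6%), and in 33.3% and 30.4% without thinning. In cluster 11 no cell of either library had a Lcn2 UMI, at median depths of 36504 and 38236.5 UMIs. Cells with 10 or more Lcn2 UMIs made up 73 of 1481 plus TAM cells (4.93%, 3.88% to 6.16%) and 59 of 2629 minus TAM cells (2.24%, 1.71% to 2.89%).

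The direction of the Lcn2 ratio differed between clusters. It was higher in plus TAM in cluster 0 (log2 ratio 0.84, 0.67 to 1.02), cluster 2 (0.86, 0.68 to 1.03) and cluster 4 (1.09, 0.89 to 1.28), and lower in cluster 7 (-1.30, -1.94 to -0.67), led by Prss56 and Pnliprp1, where the counts were 43 UMIs in plus TAM and 45 in minus TAM. This difference between clusters has no replicate check. Cluster 4 had the highest level in both libraries among clusters of 50 or more cells, 143 CPM in plus TAM and 67.1 CPM in minus TAM. Across cells, Slpi and Lcn2 correlated weakly (Pearson's r 0.23 over 1481 plus TAM cells and 0.12 over 2629 minus TAM cells, which share library and depth), and of cells with a Slpi UMI 49.2% in plus TAM and 44.8% in minus TAM also had a Lcn2 UMI, against 33.3% and 30.4% of all cells.

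Lypd8, a surface protein of colonocytes anchored in the membrane by a lipid, binds flagellated bacteria and keeps them from the inner mucus. It was the most abundant member, with 10629 UMIs (285 CPM) in plus TAM against 13340 UMIs (194 CPM) in minus TAM, a log2 ratio of 0.55 (0.51 to 0.59), or 1.46-fold higher. The share of cells ran the other way: 9.95% of thinned plus TAM cells (8.42% to 11.6%) and 17.4% of thinned minus TAM cells (15.9% to 19.0%) had a UMI, so no order between the libraries is read from this share. Cells with 10 or more Lypd8 UMIs numbered 49 of 1481 in plus TAM (3.31%, 2.46% to 4.35%) and 202 of 2629 in minus TAM (7.68%, 6.69% to 8.77%). The gene lies at chr11:58379043-58390728 on the plus strand.

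The higher summed level of plus TAM lay in very few cells. Its 5 highest cells held 1972, 1179, 936, 869 and 549 UMIs and together over 50% of all Lypd8 UMIs, whereas 32 cells held 50% in minus TAM, where the highest had 1259, 481, 433, 431 and 302. The highest 1% of cells held 76.4% of Lypd8 UMIs in plus TAM and 46.9% in minus TAM, against medians of 7.15% and 6.74% over all measured genes. In the highest plus TAM cell, Lypd8 made up 5.11% of all UMIs. Cluster 11, colonocyte-like by 9 of the 11 colonocyte markers with Clca4a, Muc3 and Car1 in the lead, held 83.6% of the Lypd8 UMIs of plus TAM in 27 cells and 17.0% of those of minus TAM in 4 cells. Cluster 8 held 9.37% in plus TAM and 57.9% in minus TAM. All 27 plus TAM cells of cluster 11 had a Lypd8 UMI, as did the 4 minus TAM cells, at 9670 and 14951 CPM.

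The direction of the Lypd8 ratio rests on these cells. All 5 of the highest plus TAM cells carried a barcode found in both matrices, as did 22 of the 27 plus TAM cells of cluster 11. Without cells of such barcodes, Lypd8 was 68.5 CPM in plus TAM against 171 CPM in minus TAM, a log2 ratio of -1.32 (-1.39 to -1.25). Without only the smaller copy of each such barcode, it was 0.55. Without the 5 highest cells of each library the ratio was -0.15 (-0.19 to -0.10), without the highest 1% of cells it was -0.62 (-0.69 to -0.56), and without cluster 11 it was -1.75 (-1.83 to -1.68). The part of the shared barcodes in this result was not tested.

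Outside clusters 8 and 11, Lypd8 also differed between clusters. In cluster 2 it was 8.68 CPM in plus TAM against 111 CPM in minus TAM (log2 ratio -3.68, -4.18 to -3.22), and in cluster 4 it was 10.9 against 46.4 CPM (-2.09, -2.67 to -1.56). It was also lower in cluster 9 (-1.16, -2.17 to -0.26), which held cells of few UMIs, and higher in cluster 0 (0.70, 0.26 to 1.16), while the interval in cluster 7 spanned 0. Clusters 0, 2, 4, 5 and 7 of plus TAM all lay between 8.68 and 15.4 CPM with a UMI in 19.9% to 25.8% of cells. At these levels free RNA and expression cannot be told apart, and neither was tested. The levels were not all alike, since the intervals of cluster 0 (13.0 to 18.2 CPM) and cluster 2 (6.14 to 11.9 CPM) do not overlap. In minus TAM clusters 0 and 7 lay at 9.47 and 10.6 CPM.

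**Figure D3:**
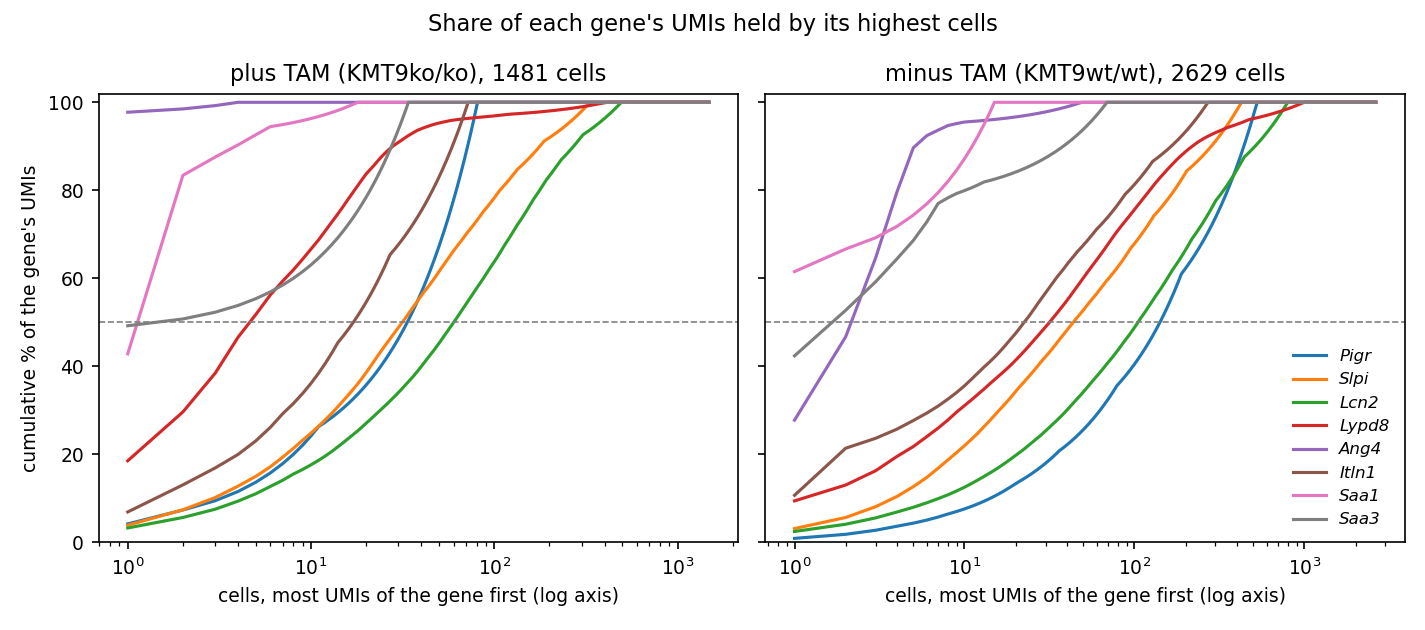
Cumulative percent of each gene's UMIs held by cells ranked by their UMIs of that gene, on a log axis, in plus TAM (left, 1481 cells) and minus TAM (right, 2629 cells). The dashed line marks 50%, which Lypd8 reached at 5 cells in plus TAM and 32 in minus TAM, and Ang4 at 1 and 3.

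Ang4, a secreted ribonuclease of the angiogenin family that acts on bacteria, was found in fewer cells still. It had 133 UMIs (3.56 CPM) in plus TAM against 871 UMIs (12.7 CPM) in minus TAM, a log2 ratio of -1.83 (-2.11 to -1.57), or 3.57-fold lower in plus TAM. A single plus TAM cell held 130 of the 133 UMIs, and 3 other cells held 1 each. In minus TAM 7 cells held 816 of the 871 UMIs, the highest with 242, 165, 156, 130 and 88. Cells with 10 or more Ang4 UMIs were therefore 1 of 1481 in plus TAM (0.0675%, 0.00171% to 0.376%) and 7 of 2629 in minus TAM (0.266%, 0.107% to 0.548%), and these intervals overlap. The ratio of summed UMIs thus compares very few cells. The gene lies at chr14:51763878-51773590 on the minus strand.

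The plus TAM cell carried a barcode found in both matrices, as its larger copy. Without such cells Ang4 had 2 UMIs in plus TAM against 869 in minus TAM, a log2 ratio of -7.60 (-10.64 to -5.74), and without the highest cell of each library 3 against 629 UMIs (-6.83, -9.12 to -5.28). Tff3, a goblet cell peptide, was at 5690 CPM in the plus TAM cell and 5249 CPM summed over the 7 minus TAM cells, against 0.482 and 3.50 CPM in the other cells. Sums over the 7 cells, here and below, do not show how many of them held a gene. Reg4 and Lyz1, genes of deep crypt and Paneth cells, were at 1978 and 453 CPM in the 7 minus TAM cells and both at 0 in the plus TAM cell. Muc2, Atoh1 and Spdef were at 0 in all 8 cells. The 8 enteroendocrine markers summed to 1460 CPM in the plus TAM cell and 323 CPM over the 7 minus TAM cells, against 0.884 and 1.04 CPM in the other cells, and Chga, Ghrl and Iapp are among the leading genes of cluster 10. Of the 7 minus TAM cells, 5 lay in cluster 10, which took no name, and the other 2 in cluster 3, led by Shh and Reg4.

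Itln1, a lectin that binds sugars on microbial surfaces, was lower in every cluster compared in which both libraries had UMIs. It had 130 UMIs (3.48 CPM) in plus TAM against 1065 UMIs (15.5 CPM) in minus TAM, a log2 ratio of -2.16 (-2.43 to -1.89), or 4.46-fold lower. Without cells of barcodes found in both matrices the log2 ratio was -2.25 (-2.58 to -1.95). The ratio was -1.02 (-1.51 to -0.53) in cluster 0, -1.89 (-3.05 to -0.91) in cluster 2, -4.24 (-5.88 to -3.00) in cluster 4 and -0.92 (-1.62 to -0.20) in cluster 7. In cluster 9 it had 0 UMIs in plus TAM and 1 in minus TAM. No plus TAM cell held more than 9 UMIs, whereas 27 minus TAM cells held 10 or more, and the highest 2 held 114 each. Thinned shares were 1.44% in plus TAM (0.883% to 2.22%) and 4.302% in minus TAM (3.54% to 5.18%), and 4.86% and 10.3% without thinning. In cluster 6, where the level was lowest among plus TAM clusters with any UMI, 1 of 251 plus TAM cells had one.

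Itln1 and Ang4 met in few cells. The minus TAM cell with 242 Ang4 UMIs also held 114 Itln1 UMIs, and the other cell with 114 Itln1 UMIs held no Ang4. Of the 49 minus TAM cells with an Ang4 UMI, 11 had an Itln1 UMI (22.4%, against 10.3% of all cells), and none of the 4 plus TAM cells did. Clusters 3 and 4 held 37.7% and 22.4% of the Itln1 UMIs of minus TAM, at 40.9 and 33.2 CPM. The level was highest in cluster 10 of minus TAM, at 416 CPM with a UMI in 7 of 15 cells, where Ang4 was also highest (4102 CPM). Across cells, Ang4 and Itln1 correlated at 0.31 in minus TAM and -0.006 in plus TAM. Itln1 lies at chr1:171518122-171535294 on the minus strand.

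The other secreted lectins, Reg3g and Reg3b, were close to undetected. Reg3g had 1 UMI in plus TAM and none in minus TAM, and Reg3b had none in either. For Reg3b, 0 of 1481 plus TAM cells puts the limit for cells with a UMI at 0.203%, and for both genes 0 of 2629 minus TAM cells puts it at 0.114%. These limits are on cells with a UMI, not on cells that express the gene. The Reg3g UMI of plus TAM was in 1 of 1481 cells (0.0675%, 0.00171% to 0.376%), a summed level of 0.0268 CPM with an upper bound of 0.149 CPM. The limit for Reg3b in plus TAM was 0.0803 CPM and that for both genes in minus TAM 0.0437 CPM, and no ratio is given.

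Saa1 and Saa3, acute phase proteins of the serum amyloid A family, had opposite ratios at low levels. Saa1 had 217 UMIs (5.81 CPM) in plus TAM against 39 UMIs (0.568 CPM) in minus TAM, a log2 ratio of 3.35 (2.86 to 3.88), or 10.2-fold higher. In plus TAM 2 cells held 93 and 88 of its UMIs, and in minus TAM 1 cell held 24 of the 39. These 3 cells all lay in colonocyte-like cluster 11, which held 91.2% of the Saa1 UMIs of plus TAM and 61.5% of those of minus TAM. One of them, with 93 UMIs, carried a barcode found in both matrices, and without such cells the ratio was 2.71 (2.16 to 3.29). Without the 5 highest cells of each library 16 UMIs were left in plus TAM against 10 in minus TAM (log2 ratio 1.56, 0.33 to 2.86). Within cluster 11 Saa1 was 216 CPM in plus TAM and 158 CPM in minus TAM, where 27 and 4 cells stand behind the levels.

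Saa3 had 65 UMIs (1.74 CPM) in plus TAM against 309 UMIs (4.50 CPM) in minus TAM, a log2 ratio of -1.37 (-1.78 to -0.98), or 2.59-fold lower, and -1.15 (-1.60 to -0.72) without cells of barcodes found in both matrices. A single cell held 32 of the plus TAM UMIs and a single cell 131 of the minus TAM UMIs, and that minus TAM cell also had 38 Lcn2 UMIs. Cluster 1 held 78.3% of the Saa3 UMIs of minus TAM and had 11 plus TAM cells, which held none. Without that cluster, 65 plus TAM against 67 minus TAM UMIs were left, a log2 ratio of 0.38 (-0.14 to 0.89). The thinned shares were 0.360% in plus TAM (0.117% to 0.839%) and 0.885% in minus TAM (0.555% to 1.34%), and their intervals overlap. The genes lie on chr7 at 46740497-46742980 (Saa1) and 46711998-46715700 (Saa3), both on the minus strand.

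**Figure D4:**
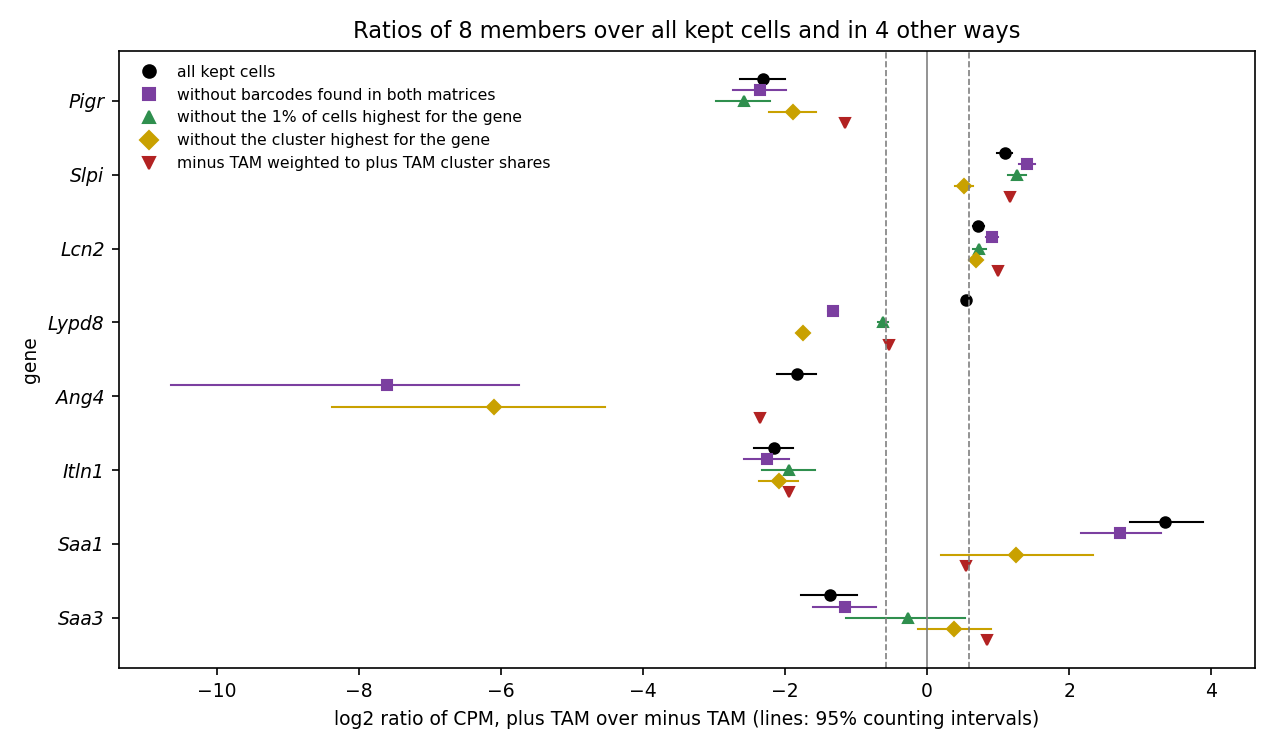
Log2 ratio of CPM, plus TAM over minus TAM, for 8 members over all kept cells and computed in 4 other ways, with 95% counting intervals as lines where they exist. Dashed lines mark 1.5-fold. Pigr, Itln1 and Ang4 stayed below 0 and Slpi, Lcn2 and Saa1 above it, while Lypd8 and Saa3 changed sign. Ang4 has no point without its highest 1% of cells, where plus TAM had 0 UMIs.

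Genes whose levels followed a member over cells in both libraries were searched among 10160 genes, at Pearson's r of 0.3 or more in each, for the 4 members with a UMI in 5% or more of cells of both libraries. Of these, Lypd8 alone had any. They were led by Ifi27l2b (r 0.56 over 1481 plus TAM cells and 0.57 over 2629 minus TAM cells), Cyp2d34 (0.58 and 0.52) and Phgr1 (0.50 and 0.49). The closest genes of Pigr, Slpi and Lcn2 reached 0.12, 0.20 and 0.21 in the library where the correlation was weaker. Among the members themselves, Saa1 and Lypd8 correlated at 0.41 in plus TAM and 0.15 in minus TAM, and Pigr and Lypd8 at 0.02 in plus TAM and 0.39 in minus TAM. The cells of a library share its depth and free RNA, and these values are descriptions.

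The rest of the defence system was described from 9 lists of 141 genes, of which 71 reached 10 CPM. Of these, 19 were higher in plus TAM (26.8%, against 8.06% of all measured genes) and 3 lower (4.23%, against 10.7%), with a median log2 ratio of 0.16. The lists were chosen with earlier results of these data known, so these shares describe the listed genes only. Without barcodes found in both matrices 16 list genes were higher and 7 lower. With minus TAM weighted to the cluster shares of plus TAM, 13 were higher and 3 lower. Of 6 measured secreted antimicrobial proteins, 3 were higher. They were Hamp, the iron hormone hepcidin (17.3 CPM in plus TAM against 3.38 CPM in minus TAM), Pglyrp1, which binds bacterial peptidoglycan (1318 against 594 CPM), and Sprr2a3 (221 against 107 CPM), which fell under the threshold, at a log2 ratio of 0.31, without barcodes found in both matrices. None of the 4 measured Reg proteins and lectins passed the threshold, Reg4 being nearest (30.4 against 43.6 CPM). Without barcodes found in both matrices Reg4 was 25.1 against 47.3 CPM, which passes as lower (log2 ratio -0.91).

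Of 10 measured genes of antibody transport and the surface barrier, 3 were higher, Muc3 (18.4 CPM in plus TAM against 1.43 CPM in minus TAM), Ly6c1 (586 against 348 CPM) and Ly6g (325 against 153 CPM). Muc3, a membrane mucin, was 2.71 against 1.19 CPM without barcodes found in both matrices, which is under 10 CPM. Without those barcodes Muc13 (32.3 against 61.4 CPM, log2 ratio -0.93) and Ceacam1 (86.8 against 145 CPM, -0.74) passed as lower. Both are named here after their values were seen. The 1 measured gene of metal and acute phase sequestration, Hp for haptoglobin, was higher (40.8 against 26.6 CPM), and so was 1 of 3 measured genes of oxidative defence, Cyba (255 against 149 CPM).

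Of 14 measured cytokine receptors and signal mediators 3 were higher, Socs3 (20.5 CPM in plus TAM against 8.54 CPM in minus TAM), a feedback inhibitor of cytokine signalling, Il4ra (23.6 against 13.3 CPM) and Stat3 (54.8 against 32.6 CPM). Il17re, a receptor subunit for IL-17C, was lower (16.8 against 25.2 CPM), and Il17ra stayed under 10 CPM (6.69 against 8.002 CPM). Of 14 measured pattern receptors and NF-kB mediators 5 were higher and none lower. These were Nfkbie (11.3 against 4.26 CPM), Cebpd (112 against 46.8 CPM), Tnfaip3 (44.2 against 24.1 CPM), Bcl3 (62.7 against 36.0 CPM) and Nfkbiz (41.0 against 25.3 CPM), whose product assists NF-kB at defence genes such as Lcn2. Cebpb did not pass (79.0 against 109 CPM).

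Of 8 measured defence chemokines 3 were higher, Ccl5 (74.9 CPM in plus TAM against 7.91 CPM in minus TAM), Cxcl5 (101 against 25.7 CPM) and Cxcl16 (299 against 180 CPM). Without barcodes found in both matrices, Ccl5 was 30.5 against 5.64 CPM (log2 ratio 2.43, and 3.24 with them), and Cxcl16, at 251 against 171 CPM, was under the threshold (0.55). Of 11 measured secretory and lineage regulators 2 were lower and none higher. Both were CDX factors, Cdx2 (25.3 CPM in plus TAM against 93.3 CPM in minus TAM, log2 ratio -1.88, -1.98 to -1.78) and Cdx1 (25.8 against 55.3 CPM, -1.10, -1.20 to -0.997). Hnf4a, another factor of intestinal identity, did not pass (14.7 against 19.4 CPM), but was lower past the threshold without barcodes found in both matrices (12.2 against 19.6 CPM, log2 ratio -0.68).

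**Figure D5:**
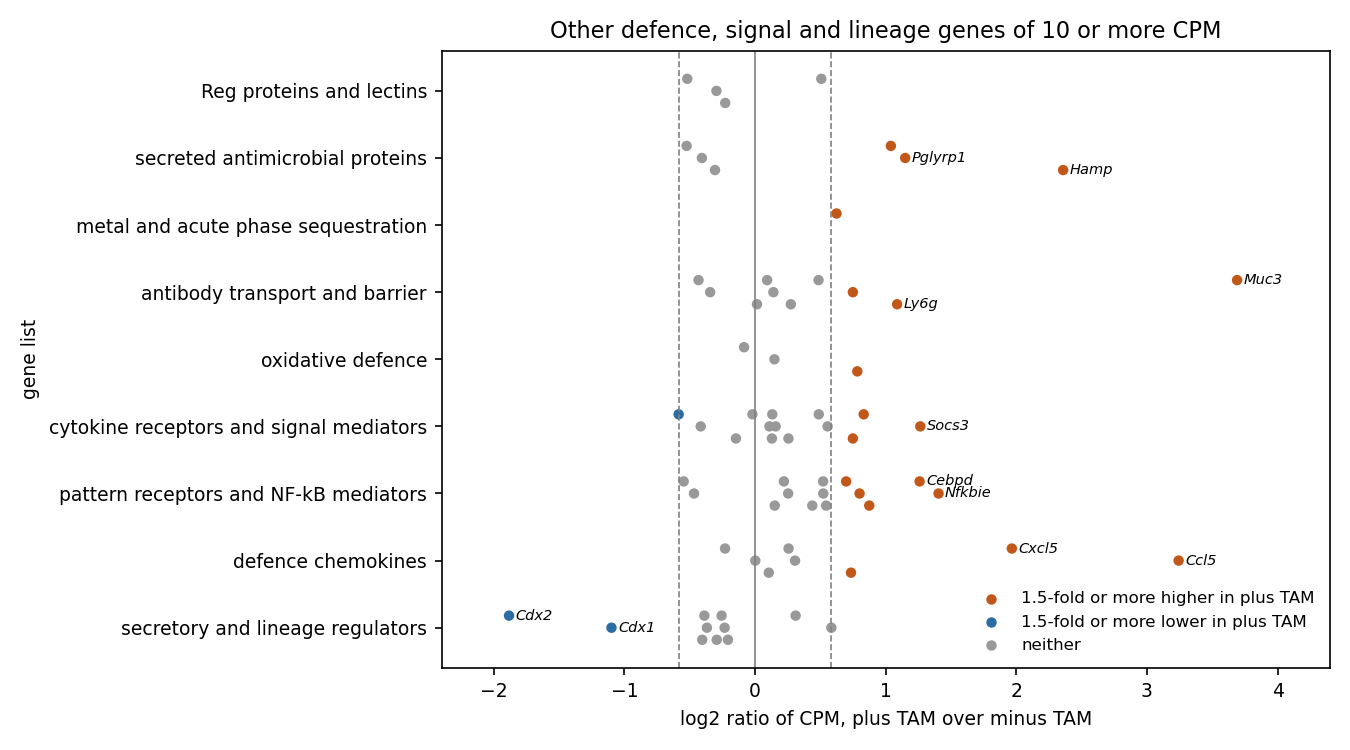
Log2 ratio of CPM, plus TAM over minus TAM, of the 71 genes of 9 lists that reached 10 CPM, 1 point per gene. Orange points are 1.5-fold or more higher in plus TAM, blue points 1.5-fold or more lower, and dashed lines mark that size. The 19 higher genes lie in 7 of the lists, and the 3 lower ones are Cdx2, Cdx1 and Il17re.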

How the data were processed

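The 3′ ends of transcripts were sequenced on the 10x Chromium system with version 2 chemistry, per the labels' protocols. The authors deposited raw UMI counts for each gene in each cell, whole numbers without normalization. Cell Ranger 3.1.0 made them, per the file headers, and mm10 is the build in the submitters' processing notes. The smallest barcodes hold 500 UMIs, and the sources used here do not give the annotation release.

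Barcodes under 1000 genes, under 2000 UMIs or over 20% mitochondrial UMIs were left out (27.9% of plus TAM and 25.7% of minus TAM barcodes). Scrublet (scanpy 1.11.5) marked only 4 and 1 doublets by its own threshold, so cells were removed from the top of the scores at 0.8% per 1000 cells (18 and 58 cells). Counts summed over the kept cells of a library were expressed as CPM. Genes that reached 10 CPM in either library were called when the ratio passed 1.5-fold, which is a threshold of size, not a test. Intervals are exact at 95%: Poisson for CPM, conditional binomial for ratios and Clopper-Pearson for shares. UMIs of a library are not replicates, and a limit for a count of 0 is 3 counts. Shares used cells thinned to 5000 UMIs. Clusters came from 2000 variable genes, 30 principal components, 15 neighbours and Leiden resolution 0.8 (leidenalg 0.10.2), without the members and listed defence genes and without integration. TMM factors came from edgeR 4.0.16. The functions for ratios and concentration were tested on simulated data. Positions are from GENCODE M21 (GRCm38), matched by gene identifier.

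The members, the lists and the rules were chosen with earlier results of these data known. Named were all members, up to 4 genes per list with the largest ratios among those of 10 or more CPM, the knockout's gene, up to 3 genes per member with a like pattern, a few fixed regulators and leading genes of clusters that a result turns on.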

Additional observations from a re-analysis of the deposited data

How the results depend on the processing

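Each log2 ratio was recomputed in up to 13 ways, 2 of them (leaving out the 1 or the 5 highest cells of a gene) chosen after seeing the data, and 66 of 101 recomputed ratios stayed inside the counting interval of the reported one. Pigr (-2.58 to -1.15), Itln1 (-2.96 to -1.94), Ang4 (-7.60 to -1.81), Slpi (0.52 to 1.41), Lcn2 (0.67 to 0.997) and Saa1 (0.54 to 3.92) kept their sign in every way that gave a ratio; Ang4 gave none without its highest 1% or 5 cells, where plus TAM had 0 UMIs. Lypd8 reversed to -1.32 without barcodes found in both matrices, -0.62 without the highest 1% of cells, -0.15 without the 5 highest cells, -1.75 without its highest cluster and -0.54 with minus TAM at the cluster shares of plus TAM. Saa3 reversed to 0.38 without its highest cluster and 0.85 at those cluster shares. The cause of these reversals was not tested. Ratios at the cluster shares of plus TAM have no interval. The weighting raises cluster 11, which held 1.82% of plus TAM and 0.152% of minus TAM cells. Its minus TAM level comes from 4 cells, so the weighted Lypd8 and Saa1 ratios (-0.54 and 0.54) depend on these. Of the 4, 1 cell held 1259 of their 2273 Lypd8 UMIs and all of their 24 Saa1 UMIs.

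The count of members higher was 1 without the highest cluster of each gene, 1 at a minimum of 50 CPM and 1 at a 2-fold threshold. The count of members lower was 0 at 50 CPM, since the 3 lower members lie under that level, and 5 with no minimum. Those 5 include Reg3g, which had 1 UMI in plus TAM and 0 in minus TAM. It was called only because a count of 0 was set to 3 counts, so no lower level of Reg3g is read from it. The count of list genes higher was 11 at 50 CPM, 48 with no minimum and 10 at 2-fold, and that of list genes lower was 7 without barcodes found in both matrices, 6 without the highest 1% of cells and 11 with no minimum. The 48 include genes seen only in minus TAM, such as Reg1 and Defa24 (0 UMIs in plus TAM and 3 in minus TAM each). For these the 0 was set to 3 counts, so the counts with no minimum are not read as directions. With a minimum of 5 CPM, Saa1 joined the higher members. Cell filters, doublet removal, TMM factors and thinning moved no count by more than 1.5-fold. The number of clusters in which a member was higher in plus TAM stayed within 1.5-fold at both other resolutions except for Pigr and Saa1 at 1.2 and Lypd8 at 0.4. No paired analysis was possible because each group was read as 1 library. Depth limits Reg3g, Reg3b and the ratios of Saa1, Saa3 and Ang4, whose UMIs lie in few cells.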
